A study of Mus musculus with 6 samples.

Results

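The megalin-cubilin endocytosis genes were followed in single cells of mouse kidney. They are Lrp2, Cubn, Amn, Dab2, Clcn5 and Lrpap1, chosen by their symbols among the 33696 genes counted, and all 6 were found. The kidneys came from male C57BL/6 mice bought at 8 to 10 weeks of age, before any operation. There were 3 sham mice and 3 DOCA-salt mice, with 1 library of 3′ single-cell RNA sequencing per mouse. In the DOCA-salt mice the left kidney was removed, a 50 mg pellet of deoxycorticosterone acetate (DOCA) was implanted 1 week later, and the mice drank 1% NaCl for 21 days. Sham mice had a sham operation and ordinary water, so the effects of the nephrectomy, the mineralocorticoid and the salt cannot be told apart.

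The proximal tubule takes filtered proteins back from the urine. Megalin (Lrp2) and cubilin (Cubn) are giant receptors at its apical membrane that bind albumin, vitamin carriers, hormones and many small proteins. Cubilin has no membrane anchor of its own and reaches the surface with amnionless (Amn). Dab2 is the adaptor that links the cytoplasmic tails to clathrin, Clcn5 encodes the chloride/proton exchanger ClC-5 of early endosomes, and Lrpap1 encodes RAP, the chaperone that keeps megalin free of ligands during its synthesis. Loss of megalin, cubilin or amnionless is known to cause proteinuria, and loss of the exchanger causes Dent disease.

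In the GRCm39 annotation Lrp2 (ENSMUSG00000027070) spans chr2:69254682-69416409 and Cubn (ENSMUSG00000026726) chr2:13281149-13496624, both on the minus strand. Amn (ENSMUSG00000021278) lies at chr12:111237524-111244001 and Dab2 (ENSMUSG00000022150) at chr15:6329269-6470196, both on the plus strand. Clcn5 (ENSMUSG00000004317) lies at chrX:7019726-7185661 and Lrpap1 (ENSMUSG00000029103) at chr5:35248837-35263892, both on the minus strand. A lncRNA on the opposite strand was counted inside Cubn (Gm13270, 1208 UMIs in proximal cells) and inside Dab2 (Gm16311, 3284 UMIs), and the chemistry keeps the strand of a transcript. On the same strand lie a lncRNA over Dab2 (Gm63092) and 5 miRNA genes inside Clcn5, which were not counted on their own, so that their reads could not be told apart from those of Dab2 and Clcn5.

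RefSeq promoters of GRCm38.p6, an earlier build than that of the counts, were matched for all 6 genes (8 promoters). The 250 bases before the start are shown for Lrp2, Cubn and Dab2, on which the comparisons between segments turned, and for Amn, the partner of Cubn. Capitals mark a GC box (GGGCGG), an E-box (CACGTG) or an HNF1 half-site (GTTAAT), each searched on both strands.
Lrp2, chr2:69586030-69586279, minus strand: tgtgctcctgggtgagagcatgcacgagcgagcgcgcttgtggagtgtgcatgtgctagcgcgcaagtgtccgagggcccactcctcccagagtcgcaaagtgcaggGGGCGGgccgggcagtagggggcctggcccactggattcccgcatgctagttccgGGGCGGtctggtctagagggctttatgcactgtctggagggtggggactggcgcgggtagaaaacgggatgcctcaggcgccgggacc
Cubn, chr2:13491877-13492126, minus strand: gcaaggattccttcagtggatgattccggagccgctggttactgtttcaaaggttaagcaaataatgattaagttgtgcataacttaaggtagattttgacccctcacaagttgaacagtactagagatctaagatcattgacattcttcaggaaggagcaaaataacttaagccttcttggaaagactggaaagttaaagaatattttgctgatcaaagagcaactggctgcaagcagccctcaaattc
Amn, chr12:111270846-111271095, plus strand: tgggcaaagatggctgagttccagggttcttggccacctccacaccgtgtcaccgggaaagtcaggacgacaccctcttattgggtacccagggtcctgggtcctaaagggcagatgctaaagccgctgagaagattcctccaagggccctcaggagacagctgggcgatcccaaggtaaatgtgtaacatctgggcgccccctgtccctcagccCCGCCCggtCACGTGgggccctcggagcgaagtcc
Dab2, downstream start, chr15:6386498-6386747, plus strand: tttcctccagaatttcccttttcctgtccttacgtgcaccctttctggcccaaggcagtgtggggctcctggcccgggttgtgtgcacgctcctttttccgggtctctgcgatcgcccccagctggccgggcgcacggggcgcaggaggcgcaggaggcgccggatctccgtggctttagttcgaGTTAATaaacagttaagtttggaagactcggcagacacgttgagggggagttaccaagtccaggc
The Lrp2 promoter held 2 GC boxes, 143 and 88 bases before the start, in a window of 66.4% G and C. The Cubn window held none of the 3 motifs and was 39.6% G and C. Amn had a GC box read on the other strand 35 bases before its start and an E-box at 26 bases, and the downstream Dab2 start had an HNF1 half-site at 65 bases. The window of the upstream Dab2 start (chr15:6299539-6299788), not shown, held none of the 3 motifs and was 36.8% G and C. Among 32851 mouse promoters of the same length, 32.7% held a GC box, 6.02% an E-box and 6.43% the HNF1 half-site. A match describes the letters only.

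The libraries held 93172739 to 137819127 UMIs in 76774 barcodes. After the filters 55630 cells were kept, 7701 to 9933 per mouse, with median UMIs of 4779 to 9117, and 15 to 35 barcodes were shared by any pair of libraries. Clusters were built without the 6 genes and without the pathway genes described below. Proximal tubule cells, named from Slc34a1, Miox and other markers, numbered 32683, or 62.0 to 66.9% of the cells of a sham mouse and 49.0 to 56.7% of those of a DOCA-salt mouse. A cluster of 695 cells, 620 of them from DOCA-salt mouse 2 (6.45% of its cells), was led by the matrix genes Mgp and Col1a1 but also held proximal markers, and was left out of the proximal cells. With it added no member passed in all proximal cells (log2 changes from -0.23 for Lrpap1 to 0.17 for Cubn). A cluster led by Wt1 and C3, described below, was also left out. Its sub-clusters with proximal genes held 681 cells from DOCA-salt and 51 from sham mice. With that cluster added no member passed either. Of the proximal cells, 1828 to 2018 per mouse were S1-like (the first convoluted part), 1348 to 2194 S2-like, and 11 to 68 S3-like (the straight end). The other proximal clusters took no segment name, the largest of them with 6638 cells and a median depth 0.106 of that of their libraries. The S3-like cells were a single cluster of 233 cells. Its S3 marker score (z score across proximal clusters, averaged over the markers) was 2.77. In the S2-like clusters that score was 0.12 to 0.57, and the S3 marker Slc7a13 was among the top genes of some. The S2-like cells may therefore include S3 cells. The S2-like cells of the groups lay mostly in different clusters. A pair of clusters made mostly of sham cells held 80.5% of the sham and 8.37% of the DOCA-salt S2-like cells, and a pair made mostly of DOCA-salt cells held 2.24% and 71.5%. In S1-like cells the corresponding single clusters held 31.5% and 2.17%, and 1.73% and 32.0%. The S3 marker score was 0.57 and 0.46 in the S2-like clusters made mostly of sham cells. It was 0.12 and 0.16 in those made mostly of DOCA-salt cells. The part of this shift in the comparisons of S2-like cells was not tested.

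Levels of the receptors in sham mice declined along the tubule for Lrp2, while Cubn and Amn were highest in S1-like cells. In CPM (UMIs of a gene per 1e6 UMIs) of non-mitochondrial UMIs, Lrp2 was at 1802 ± 328 in S1-like, 1550 ± 334 in S2-like and 758 ± 320 in S3-like cells (mean ± SD, n = 3 mice here and below), with overlap between S1-like and S2-like cells. Cubn was at 353 ± 58.0 in S1-like, 265 ± 4.72 in S3-like and 233 ± 63.4 in S2-like cells, so the last pair lay within its spread. Amn was at 455 ± 121, 302 ± 107 and 290 ± 66.6 in the same order, with overlapping spreads. Dab2 declined along the tubule, from 1531 ± 249 in S1-like to 768 ± 248 in S2-like and 301 ± 182 in S3-like cells. Clcn5 went from 161 ± 12.7 to 118 ± 3.81 and 54.7 ± 16.3. Lrpap1 ran the other way, with 768 ± 141 in S3-like against 529 ± 38.8 in S2-like and 512 ± 27.9 in S1-like cells. The segments came from clusters of the same cells, and these differences were not tested. Because the S2-like cells may include S3 cells, the order along the tubule is that of the named classes only.

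**Figure D1:**
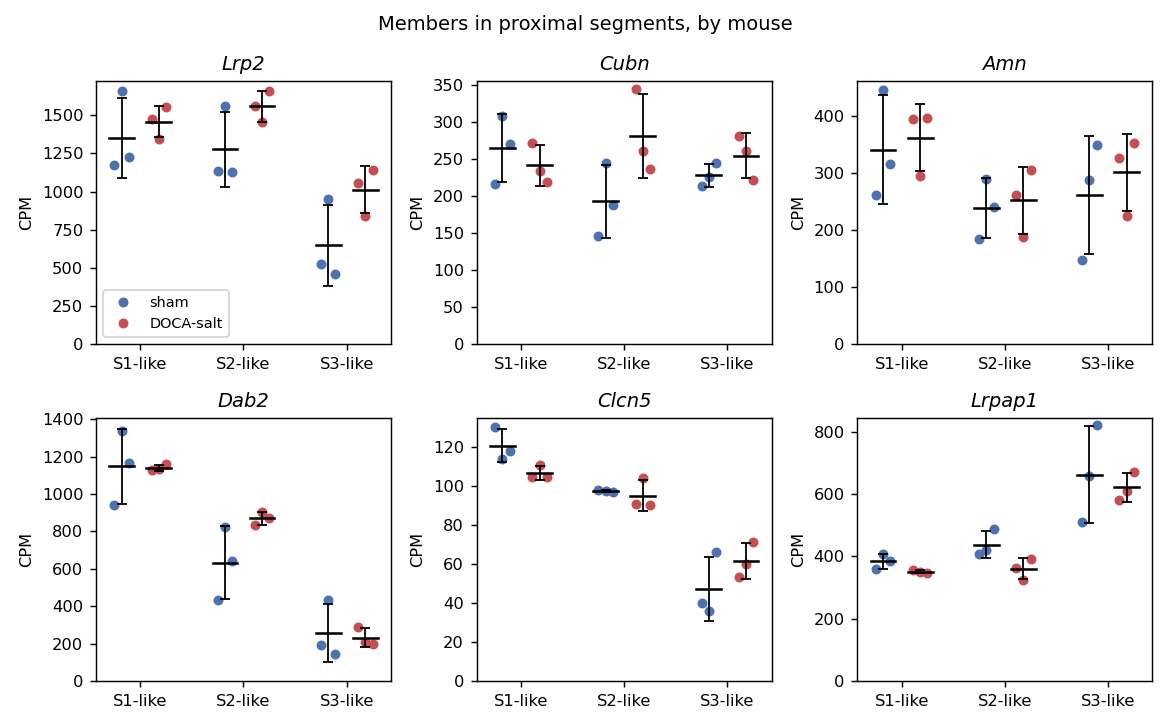
Level of each gene in each mouse (CPM, scaled by the trimmed mean of M-values), by proximal segment. Points are mice, wide lines are group means and error bars are SDs (n = 3 mice per group). In S2-like cells the DOCA-salt mice lay above the sham mice for Dab2 (837 to 906 against 432 to 826), while in S1-like cells the groups overlapped.

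For the comparison of DOCA-salt with sham mice, UMIs were summed per mouse and segment, scaled by the trimmed mean of M-values within that set of cells and given as CPM over all UMIs. In S1-like cells Lrp2 was at 1173, 1656 and 1227 CPM in sham mice 1 to 3 and at 1477, 1347 and 1554 in DOCA-salt mice 1 to 3. The DOCA-salt mice lay inside the sham range. In S2-like cells the values were 1135, 1562 and 1132 against 1559, 1458 and 1660.4. Here sham mouse 2 stood among the DOCA-salt mice, above the other sham mice. In the few S3-like cells they were 525, 953 and 463 against 1059, 839.5 and 1140.0, again with sham mouse 2 inside the DOCA-salt range.

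Cubn in S1-like cells was at 216, 308 and 270.0 CPM in sham mice and at 271, 234 and 218 in DOCA-salt mice, with the groups overlapping. In S2-like cells it was at 146, 244 and 187 against 345, 261 and 237. All DOCA-salt mice but mouse 3 exceeded every sham mouse, and sham mouse 2 was again the highest of its group. In S3-like cells it was at 214, 225 and 245 against 281, 261 and 221. Amn in S1-like cells was at 261, 447 and 316 against 395, 295 and 397, and in S2-like cells at 185, 290.0 and 242 against 262, 189 and 306. The Amn ranges overlapped in both segments, with sham mouse 2 the highest sham mouse.

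Dab2 in S1-like cells was at 941, 1337 and 1166 CPM in sham mice and at 1127, 1137 and 1159.7 in DOCA-salt mice. The DOCA-salt values were nearly equal and lay in the middle of the sham range. In S2-like cells it was at 432, 826 and 640.3 against 837, 906 and 872, and the groups did not overlap, although sham mouse 2 came close to the lowest DOCA-salt mouse. In S3-like cells it was at 192, 432 and 145 against 289.7, 208 and 198. Clcn5 in S1-like cells was at 129.9, 114 and 118 against 104, 110.5 and 104, without overlap, and in S2-like cells at 97.6, 97.2 and 96.6 against 90.6, 104 and 89.9. Lrpap1 was lower in every DOCA-salt mouse than in every sham mouse in S1-like cells, at 358, 407 and 386 against 355, 351 and 347, and in S2-like cells, at 406, 419 and 488 against 363, 325 and 392. How many of all genes separated the groups in this way was not counted.

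None of the 6 genes passed an adjusted p of 0.05 in any segment (edgeR's quasi-likelihood test; Benjamini-Hochberg adjustment, all genes). At an unadjusted p under 0.05, Cubn in S2-like and Lrp2 in S3-like cells passed, where 17.2% of all genes had such a p in S1-like, 28.3% in S2-like, 9.19% in S3-like and 23.6% in all proximal cells. No member passed by DESeq2 in a segment or in all proximal cells. After adjustment the edgeR test placed in S1-like cells 2.74% of 14409 genes higher in DOCA-salt mice and 1.13% lower, against 6.72% and 3.92% of 14127 in S2-like cells, 0.213% and 0.128% of 4691 in S3-like cells, and 4.43% and 1.97% of 16109 in all proximal cells. In S2-like cells Cubn differed by 0.55 on the log2 scale (standard error, SE, 0.20; 95% interval 0.09 to 1.00; edgeR adjusted p = 0.116), Dab2 by 0.46 (SE 0.21; -0.01 to 0.93; adjusted p = 0.184) and Lrp2 by 0.29 (SE 0.17; -0.08 to 0.66; adjusted p = 0.285). In S3-like cells Lrp2 differed by 0.67 (SE 0.25; 0.15 to 1.19; edgeR adjusted p = 0.338). In S1-like cells the intervals were -0.25 to 0.47 for Lrp2, -0.47 to 0.20 for Cubn, -0.37 to 0.54 for Amn, -0.34 to 0.32 for Dab2, -0.40 to 0.04 for Clcn5 and -0.36 to 0.11 for Lrpap1. In all proximal cells together the log2 differences ran from -0.20 for Lrpap1 (-0.45 to 0.04) to 0.21 for Cubn (-0.21 to 0.63), and Lrp2 was at 1072, 1564 and 1094 CPM against 1432, 1332 and 1506.

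The calls in S2-like cells changed with 1 mouse and with the filter on low counts. Without sham mouse 2, Lrp2 was higher by 0.47 (adjusted p = 0.0268), Cubn by 0.77 (adjusted p = 0.0145) and Dab2 by 0.72 (adjusted p = 0.0149) in DOCA-salt mice by the same edgeR test, and in S3-like cells Lrp2 was higher by 1.04 (adjusted p = 0.0298). With no filter on low counts Cubn passed in S2-like cells (0.53, edgeR adjusted p = 0.0227) and Lrp2 in S3-like cells (0.87, edgeR adjusted p = 0.0288). The share of all genes that passed was not counted without sham mouse 2 or without the filter. Whether the members stand out in these settings therefore cannot be told. Sham mouse 2 had the smallest number of cells, and no label sets it apart.

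**Figure D2:**
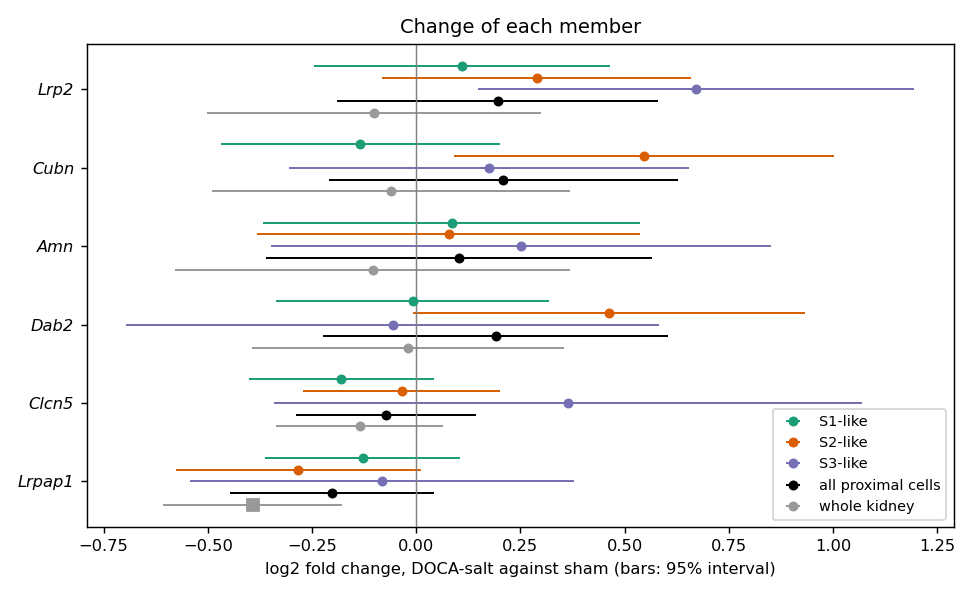
Log2 fold change of DOCA-salt against sham mice for each gene and segment, with 95% intervals. Sums over whole kidneys are in grey, and the square, which marks an adjusted p under 0.05, is reached only by Lrpap1 in whole kidneys (-0.39). The intervals of Cubn in S2-like cells (0.09 to 1.00) and of Lrp2 in S3-like cells (0.15 to 1.19) lie above 0.

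The change of Cubn and Dab2 differed between the segments of the same mice. With the mouse as a block, so that a library high in both segments cancels out, the DOCA-salt change of Cubn was larger in S2-like than in S1-like cells by 0.71 on the log2 scale (SE 0.10; 95% interval 0.51 to 0.91; edgeR adjusted p = 8.42e-05) and that of Dab2 by 0.53 (SE 0.11; 0.30 to 0.76; adjusted p = 0.00363). Over all 15044 genes tested 10.9% passed this comparison in either direction. The receptor partners of Cubn did not pass, with 0.21 for Lrp2 (0.00 to 0.41; edgeR adjusted p = 0.186) and -0.00 for Amn (-0.21 to 0.20; adjusted p = 0.986). The calls changed with the cells used. The share of all genes that passed was 19.3% with at most 20% mitochondrial UMIs, 26.4% without doublet removal and 10.7% with a segment given to each barcode. Lrp2 did pass without doublet removal (0.24, edgeR adjusted p = 0.0491) and with at most 20% mitochondrial UMIs (0.20, adjusted p = 0.0299), where Amn passed in the other direction (-0.21, adjusted p = 0.0440). Clcn5 gave 0.17 (-0.01 to 0.35) and Lrpap1 -0.13 (-0.34 to 0.08). Clcn5 passed with at most 20% mitochondrial UMIs (0.37, edgeR adjusted p = 0.00463). Lrpap1 passed in that setting (-0.29, edgeR adjusted p = 0.00715), without doublet removal (-0.31, adjusted p = 0.0203) and with a segment given to each barcode (-0.31, adjusted p = 0.0293). Leaving out each mouse in turn kept Cubn between 0.65 and 0.79 and Dab2 between 0.42 and 0.63, both past the threshold each time. Giving each proximal barcode its own segment, without clusters, also kept both, at 0.54 for Cubn (edgeR adjusted p = 1.60e-04) and 0.43 for Dab2 (adjusted p = 0.00484). Among cells with a segment by both ways, only 67.9% had the same one. Of the barcodes with a segment marker, 12.8% lay near the cut between segments. Malat1, a nuclear transcript, moved with this result. In S2-like cells it was at 28208, 28718 and 24234 CPM of non-mitochondrial UMIs in sham and at 33119, 39262 and 35529 in DOCA-salt mice, without overlap. In S1-like cells it was at 37502, 29534 and 32704 against 31562, 33420 and 36521, with overlap. The part of Malat1, or of the nuclear RNA it marks, in the difference was not tested. The same holds for the S3 marker scores, which were lower in the mostly DOCA-salt than in the mostly sham S2-like clusters.

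Between S3-like and S1-like cells the change of Lrp2 differed by 0.79 (SE 0.17; 0.46 to 1.13; edgeR adjusted p = 6.38e-04), where 1.8% of 13239 genes passed. This rested on 11 to 68 S3-like cells per mouse and was lost without sham mouse 3 (0.61, adjusted p = 0.0646) or DOCA-salt mouse 3 (0.70, adjusted p = 0.0574), with at most 20% mitochondrial UMIs (0.88, adjusted p = 0.598) and with a segment given to each barcode (0.12, adjusted p = 0.733). In that last setting Cubn passed instead (0.70, edgeR adjusted p = 0.00142). Of all genes 0.263% passed with at most 20% mitochondrial UMIs and 2.85% with a segment given to each barcode, and 13.4% passed at doubled cluster resolution. Between S3-like and S2-like cells no member passed and 1.61% of genes did, with Lrp2 at 0.52 (edgeR adjusted p = 0.158).

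The proximal clusters were of different kinds, and the difference between segments was fitted within each. Some clusters had under 5000 CPM of Malat1 among non-mitochondrial UMIs, others a median mitochondrial share under 20%, and the rest had both kinds of UMIs. In clusters with a low mitochondrial share Cubn of S2-like cells was at 174, 343 and 243 CPM in sham and at 509, 363 and 352 in DOCA-salt mice, which did not overlap, and in S1-like cells at 286, 492 and 381 against 433, 347 and 324, which did. The difference between segments was 0.74 for Cubn (edgeR adjusted p = 4.69e-05) and 0.45 for Dab2 (adjusted p = 0.00571), where 8.98% of genes passed. In clusters with Malat1 and mitochondrial UMIs it was 0.45 for Cubn (edgeR adjusted p = 1.58e-04) and 0.56 for Dab2 (adjusted p = 1.23e-05), where 8.35% passed. Malat1 of S2-like cells was higher in every DOCA-salt than in every sham mouse within both of these kinds. In clusters with few Malat1 UMIs it was 0.27 for Cubn (0.06 to 0.47; edgeR adjusted p = 0.181) and 0.08 for Dab2 (-0.06 to 0.22; adjusted p = 0.736), where 3.08% passed. In these last clusters Cubn of S2-like cells was at 75.3, 85.1 and 70.4 CPM in sham and at 86.8, 96.0 and 92.2 in DOCA-salt mice. Whether the kinds differ from each other was not tested.

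**Figure D3:**
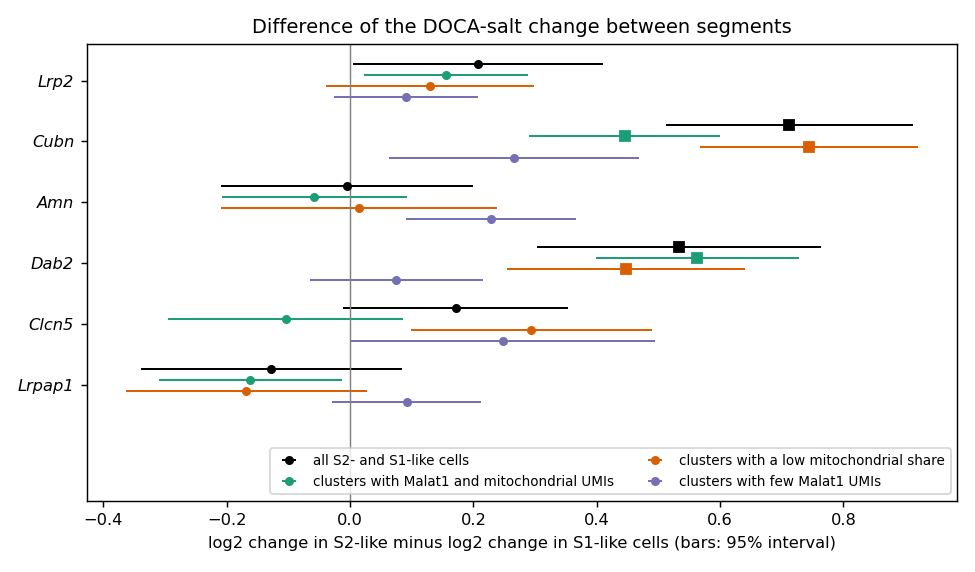
Difference of the DOCA-salt change (log2) between S2-like and S1-like cells for each gene, with 95% intervals, over all cells and within clusters of 1 kind. Squares mark an adjusted p under 0.05: Cubn and Dab2 over all cells (0.71 and 0.53) and within 2 of the 3 kinds.

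Counted as cells with at least 1 UMI, after each cell was thinned to 1000 UMIs, Lrp2 was found in 68.1 ± 5.08% of sham and 68.4 ± 3.46% of DOCA-salt S1-like cells, and in 60.2 ± 8.15% and 66.3 ± 1.70% of S2-like cells. Cubn was found in 12.2, 19.1 and 14.0% of S2-like cells in sham mice and in 24.0, 20.7 and 17.9% in DOCA-salt mice, which overlapped through sham mouse 2 and DOCA-salt mouse 3, and in 22.3 ± 2.79% against 20.2 ± 1.86% of S1-like cells. Unthinned, the S2-like shares of Cubn were 67.8% and 72.4%, and those of Lrp2 93.7% and 94.8%. T or NK cells, in which these receptors are not expected, had Lrp2 in 12.8 ± 1.46% and Cubn in 2.15 ± 0.490% of sham cells at the same thinning. In DOCA-salt mice these shares were lower, at 8.25 ± 2.37% for Lrp2 and 1.35 ± 0.325% for Cubn, without overlap. The median depths in sham mice were 2991 to 3345 UMIs against 8410 to 11674 in S1-like cells. In sham mice, 128 S1-like, 81 S2-like and 5 T or NK cells were shallower and left out. With 3 against 3 mice the two-sided exact permutation test cannot go below 0.1, so none of the 24 shares could pass. Lrpap1 reached that value, without overlap, in S1-like cells (30.9 ± 0.707% of sham against 29.8 ± 0.174% of DOCA-salt cells) and in S2-like cells (34.9 ± 1.00% against 31.1 ± 2.08%). A share of 0.1 of such tests would reach it without any change. Both had an adjusted p of 0.686 by this permutation test over the 24 shares. In S1-like cells the groups overlapped after thinning to 500 UMIs (17.1 ± 0.288% against 16.95 ± 0.232%). Unthinned, that difference was reversed (0.90 percentage points).

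Beyond the 6 genes, the endocytic machinery was counted in all proximal cells, where 4.43% of all genes tested rose and 1.97% fell. Of 18 clathrin coat and adaptor genes and of 20 genes of endosome traffic, none passed (median log2 change -0.03 and -0.07, against -0.02 over all 16109 genes). Of 25 genes of endosome acidification 1 rose: Atp6v0a4, a membrane subunit of the vacuolar proton pump, went from 141, 165 and 153 CPM to 200.4, 229.8 and 217 (0.50, SE 0.11, edgeR adjusted p = 0.0324). None of 17 lysosomal genes (median 0.12) and none of 14 apical scaffold genes and regulators (median -0.19) passed.

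Among 15 genes listed as other uptake receptors or their partners 4 rose and none fell in the same cells, against those shares of all genes. B2m, which pairs with the neonatal Fc receptor but is no receptor itself, went from 75.1, 106 and 83.5 CPM to 169, 169 and 198 (1.02, SE 0.14, edgeR adjusted p = 0.00645). The gene of that receptor, Fcgrt, was on the list and did not pass. Havcr1, the phosphatidylserine receptor KIM-1 known as an injury marker, went from 0.296, 0.234 and 0.533 CPM to 2.42, 1.85 and 4.34 (3.03, SE 0.41, edgeR adjusted p = 0.00517). Both stood clear of the sham mice, but Havcr1 remained a scarce transcript. Lrp1 rose from a mean of 0.370 to 1.03 CPM (adjusted p = 0.0288) and Scarb1 from 0.592 to 1.42 CPM (adjusted p = 0.0237) by the same edgeR test. Of 14 genes for ligands and carriers 13 were tested. Ttr, the carrier of thyroxine, rose from 197, 204 and 152 CPM to 419, 449 and 353 (1.14, SE 0.15, edgeR adjusted p = 0.00458), Apoe from 184, 159 and 191 to 264, 379 and 264 (0.76, adjusted p = 0.0293), and Lcn2, a filtered lipocalin, from a mean of 0.807 to 3.57 (2.12, adjusted p = 0.0315). Lpl, lipoprotein lipase, fell from 275, 483 and 316 CPM to 147, 72.3 and 117 (-1.67, SE 0.28, edgeR adjusted p = 0.0125). All 4 were outside the sham range in every DOCA-salt mouse. They, like B2m and Havcr1, were named for passing on these same values, so the separation adds no support. The share of all genes without overlap was not counted. Other cells moved with these rises: macrophages made up 1.41 to 1.77% of the cells of sham and 4.74 to 7.16% of those of DOCA-salt mice, and fibroblasts 0.0519 to 0.223% and 2.44 to 3.19%. The part of their free RNA in the rises, those of scarce transcripts such as Lrp1, Scarb1 and Lcn2 included, was not tested. Of 12 injury genes 6 rose (median 1.17), Havcr1 and Lcn2 among them, and of 16 genes of the response to dissociation none passed (median -0.31). The 6 members had a median of 0.15, with 4 of them positive.

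Outside the proximal tubule, Lrp2 stood no higher than the highest of 8 proximal marker genes in each class but the cluster led by Wt1 and C3, and Cubn stood no higher in any class. The part of free RNA in these levels was not tested, and the markers reached 8.41 to 25.6% of their proximal level in the cluster led by Wt1 and C3 and 40.7 to 82.4% in cycling cells. In T or NK cells of sham mice the 8 proximal markers stood at 7.53 to 10.7% of their level in proximal cells, Lrp2 at 8.39% and Cubn at 8.66%. In thick ascending limb cells the markers stood at 5.91 to 8.63%, Lrp2 at 6.90% and Cubn at 6.62%. Amn was above all 8 markers in 12 of 17 classes, at 30.5% in the cluster led by Wt1 and C3, at 83.0% in cycling cells and at 5.58 to 12.4% in the other 10. Clcn5, Dab2 and Lrpap1 stood further above the markers in some classes. Clcn5 was at 430% of its proximal level in intercalated A-like cells and at 364% in intercalated B-like cells (acid- and bicarbonate-secreting cells of the collecting duct), at 244% in the cluster led by Hsd11b2 and Atp6v1g3, and at 75.2% in thick ascending limb cells. Dab2 was at 50.4% in intercalated A-like cells, 44.4% in macrophages and 32.0% in intercalated B-like cells. Lrpap1 was at 32.5% or less in each class but the cluster led by Wt1 and C3 and the cycling cells.

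**Figure D4:**
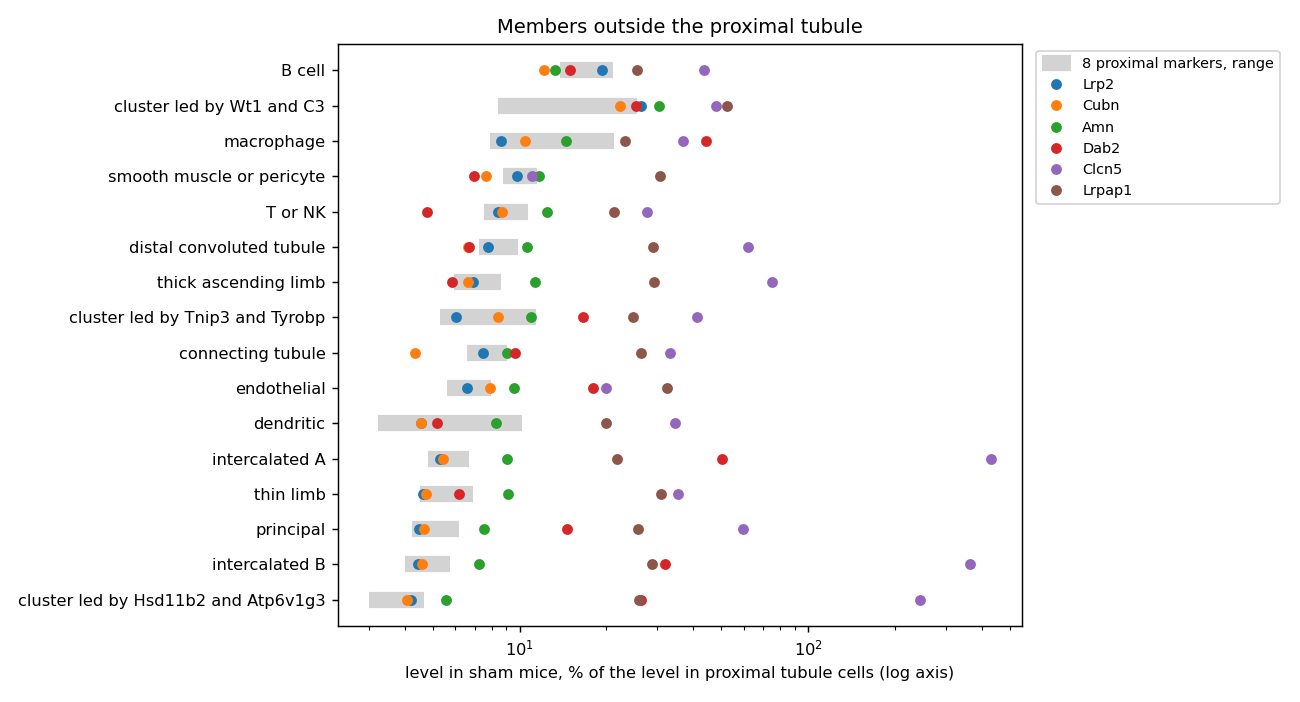
Level of each gene in sham mice in each class outside the proximal tubule, as a percentage of its level in proximal tubule cells (log axis; cycling cells are not drawn). Grey bars span the 8 proximal marker genes. Lrp2 and Cubn lie in or near the bars in nearly all classes, Clcn5 reaches 430% in intercalated A-like cells and Dab2 50.4%.

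Over 17 classes outside the proximal tubule 93 member tests were made, of which 12 rose and 5 fell in DOCA-salt mice. Of all gene tests in those classes 3.91% rose and 3.35% fell. The classes include the cluster led by Wt1 and C3, in which all 6 genes rose. Cells of sub-clusters with proximal genes made up 77.7% of its DOCA-salt and 14.8% of its sham cells. The count of rises is therefore not one of cells outside the proximal tubule alone. In intercalated B-like cells Clcn5 was at 334, 304 and 355 CPM in sham mice and at 510.2, 652 and 527 in DOCA-salt mice, all above the sham mice. It rose by 0.77 (SE 0.15; 95% interval 0.45 to 1.08; edgeR adjusted p = 0.0063), where 3.38% of 9703 genes rose and 3.38% fell. Dab2 in the same cells went from 219, 287 and 232 to 348, 340.3 and 372 CPM, without overlap, and rose by 0.52 (SE 0.14; 0.21 to 0.83; edgeR adjusted p = 0.0436). The call of Dab2 was lost with library sizes alone (0.36, adjusted p = 0.146) and on leaving out any mouse but sham mouse 2 (0.44 to 0.55, edgeR adjusted p = 0.0835 to 0.199). These cells numbered 97 to 155 per mouse, and their mitochondrial share was 22.2 to 26.0% in sham and 29.4 to 32.7% in DOCA-salt mice, whose part in the result was not tested. In intercalated A-like cells Clcn5 was at 415, 301 and 501 CPM against 420.3, 576 and 478, which overlapped (0.27; -0.11 to 0.66; edgeR adjusted p = 0.592, where 0.685% of genes rose and 0.9% fell). The change of Clcn5 was larger in B-like than in A-like cells by 0.49 (SE 0.13; 0.23 to 0.75; edgeR adjusted p = 0.0295), where 2.22% of 10576 genes passed. That difference was 0.35 with library sizes alone (adjusted p = 0.14), and it was lost on leaving out any mouse but sham mouse 2 (0.37 to 0.52, edgeR adjusted p = 0.0544 to 0.256).

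In macrophages Clcn5 was at 41.7, 51.2 and 38.2 CPM in sham mice and at 78.5, 83.0 and 70.5 in DOCA-salt mice. The groups stood apart, and Clcn5 rose by 0.83 (SE 0.19; 0.42 to 1.23; edgeR adjusted p = 0.0154), where 2.92% of 8687 genes rose and 2.89% fell. The call was lost without sham mouse 1 (0.80, adjusted p = 0.0948) or sham mouse 3 (0.75, adjusted p = 0.0891) by the same edgeR test. Dab2, which macrophages also express, was at 464, 462 and 406 against 486, 634 and 549 CPM (0.33; -0.00 to 0.65; edgeR adjusted p = 0.271). In endothelial cells Dab2 was at 157, 188 and 181 CPM against 207, 210.2 and 253, without overlap, and did not pass (0.35; 0.07 to 0.64; edgeR adjusted p = 0.12, where 5.46% rose and 3.87% fell). In the cluster led by Tnip3 and Tyrobp Dab2 went from 129, 166 and 224 to 325, 288 and 467 CPM (1.06, SE 0.25, edgeR adjusted p = 0.0375, where 1.68% rose and 0.706% fell), and in dendritic cells from 90.9, 59.8 and 15.7 to 166, 199 and 135 (1.68, SE 0.38, edgeR adjusted p = 0.0258, where 1.96% rose and 0.414% fell). The dendritic class held 11 to 47 cells per mouse. The call was lost in the former on leaving out any mouse but DOCA-salt mouse 2 (0.85 to 1.28, edgeR adjusted p = 0.0558 to 0.167), and in the latter without sham mouse 2 or 3 or DOCA-salt mouse 1 or 2 (1.22 to 1.87, edgeR adjusted p = 0.0636 to 0.107).

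**Figure D5:**
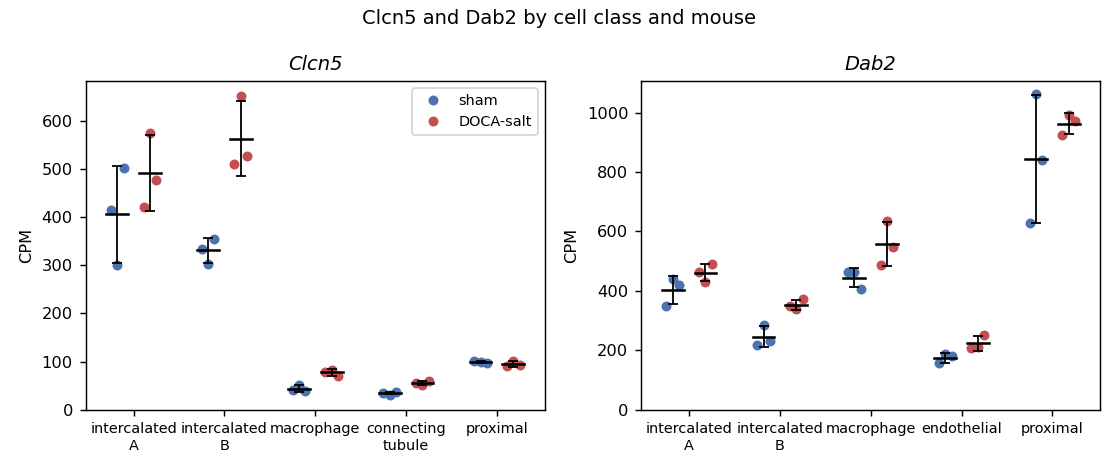
Clcn5 and Dab2 in each mouse (CPM) by cell class, with group means and SDs (n = 3 mice per group). Clcn5 separates the groups in intercalated B-like cells (304 to 355 against 510.2 to 652) and in macrophages (38.2 to 51.2 against 70.5 to 83.0), and overlaps in intercalated A-like cells.

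In connecting tubule cells Clcn5 rose from 35.1, 31.4 and 37.1 to 56.3, 51.7 and 59.0 CPM (0.68, SE 0.18, edgeR adjusted p = 0.0125, where 11.8% of genes rose and 11.6% fell). Lrp2 fell there from 82.5, 108 and 100.4 to 60.7, 67.4 and 69.6 (-0.57, adjusted p = 0.0198), Dab2 from a mean of 85.3 to 59.2 (-0.53, adjusted p = 0.0474) and Lrpap1 from 109.8 to 72.2 (-0.61, adjusted p = 0.0142) by the same edgeR test. In distal convoluted tubule cells Lrp2 fell from 84.6, 71.8 and 98.9 to 47.4, 43.5 and 66.7 CPM (-0.73, edgeR adjusted p = 0.0209) and Lrpap1 from 103, 76.6 and 124 to 65.7, 64.3 and 57.5 (-0.72, edgeR adjusted p = 0.0141), where 4.66% rose and 2.92% fell. In each of these comparisons the groups did not overlap. The genes passed on these same values, so the separation adds no support, and the share of all genes without overlap was not counted. The 8 proximal markers moved with the falls: 7 of 8 fell in connecting tubule cells (median -1.04, range -1.51 to 0.23) and 6 of 8 in distal convoluted tubule cells (median -0.97, range -1.37 to 0.39). Their part in the falls of Lrp2, Dab2 and Lrpap1 was not tested. The mitochondrial share of connecting tubule cells was 22.1 to 23.8% in sham and 16.7 to 17.7% in DOCA-salt mice. In distal convoluted tubule cells it was 33.7 to 34.6% and 25.2 to 28.2%. Its part in the changes in these classes was not tested. With library sizes alone the connecting tubule falls of Lrp2 (-0.37, edgeR adjusted p = 0.127), Dab2 (-0.34, adjusted p = 0.195) and Lrpap1 (-0.42, adjusted p = 0.0869) were lost. In distal convoluted tubule cells that of Lrp2 was lost too (-0.57, edgeR adjusted p = 0.0675), while that of Lrpap1 was kept. Each of the falls was also lost without some of the mice. In connecting tubule cells that of Dab2 was lost without any mouse but DOCA-salt mouse 2 (-0.59 to -0.38, edgeR adjusted p = 0.0637 to 0.204), that of Lrp2 without any mouse but sham mouse 1 and DOCA-salt mouse 3 (-0.59 to -0.47, adjusted p = 0.0515 to 0.0795), and that of Lrpap1 without sham mouse 3 or DOCA-salt mouse 1 or 2 (-0.60 to -0.45, adjusted p = 0.0534 to 0.0976). In distal convoluted tubule cells that of Lrp2 was lost without sham mouse 1 or 3 or DOCA-salt mouse 1 or 2 (-0.74 to -0.60, edgeR adjusted p = 0.0647 to 0.163), and that of Lrpap1 without sham mouse 1 or 3 or DOCA-salt mouse 1 or 3 (-0.74 to -0.54, adjusted p = 0.0517 to 0.139). The rise of Clcn5 was kept each time.

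The cluster led by Wt1 and C3 was the only class in which all 6 genes rose. Lrp2 went from 269.8, 432 and 369 CPM to 873, 794 and 929, Cubn from 39.2, 53.4 and 62.4 to 144, 156 and 151, and Amn from 53.2, 111 and 110.5 to 289, 226 and 335. The DOCA-salt mice lay far above the sham mice for each receptor. The changes were 1.27 for Lrp2 (edgeR adjusted p = 2.25e-04), 1.52 for Cubn (4.25e-05), 1.61 for Amn (3.69e-04), 1.44 for Dab2 (6.46e-05), 0.70 for Clcn5 (0.0169) and 0.41 for Lrpap1 (0.0324), where 12% of 12406 genes rose and 12.6% fell. On leaving out 1 mouse, Lrpap1 was lost without any but sham mouse 3 (0.35 to 0.43, adjusted p = 0.0621 to 0.121) and Clcn5 was lost without DOCA-salt mouse 3 (0.70, adjusted p = 0.0554) by the same edgeR test. Lrpap1 was also lost with library sizes alone (0.30, edgeR adjusted p = 0.0993) and with the replicate block (0.42, adjusted p = 0.108). Proximal markers rose with them, 7 of 8 (median 1.28, range 0.46 to 1.87). Clustered again, the 1221 cells held sub-clusters with proximal genes, which made up 10.7, 15.9 and 16.3% of the cells of the sham mice and 74.2, 77.5 and 80.7% of those of the DOCA-salt mice. One of them, led by Ccl2 and Sorcs1, held 275 cells, 269 of them from DOCA-salt mice, with levels, in CPM of non-mitochondrial UMIs, of 720.3 for Lrp2, 722 for Vcam1 and 273 for Havcr1. In a sub-cluster led by Pcp4 and Robo1 (355 cells), without those cells, Lrp2 was at 224, 265 and 228 CPM in sham and at 205, 146 and 164 in DOCA-salt mice (-0.48; edgeR adjusted p = 0.129). Lrpap1 fell there (-0.68; edgeR adjusted p = 0.0408, where 1.75% rose and 1.86% fell). In a sub-cluster led by Sfrp5 and Cacna1e (108 cells, 10 to 32 per mouse) the values ran the other way and none passed, where 1% of genes rose and 1.28% fell. Dab2 was there at 211, 248 and 271 CPM in sham and at 403, 337 and 371 in DOCA-salt mice, without overlap (0.58; 0.17 to 0.99; edgeR adjusted p = 0.152). Cubn differed by 1.64 (0.52 to 2.76; edgeR adjusted p = 0.13) and Lrp2 by 0.38 (-0.10 to 0.85; adjusted p = 0.48), and Cubn and Dab2 had an unadjusted p under 0.05, as did 14.2% of all genes.

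Summed over whole kidneys, only Lrpap1 differed, and fewer cells of a type and less RNA per cell cannot be told apart in such sums. It was at 304, 309.8 and 319 CPM in sham mice and at 248, 224 and 239 in DOCA-salt mice, without overlap (-0.39, SE 0.09, 95% interval -0.61 to -0.18, 0.762 of the sham level, edgeR adjusted p = 0.0246, where 11.5% of 19665 genes rose and 5.69% fell). The proximal markers had a median of -0.50 in these sums, 3 of 8 falling and 1 rising. With library sizes alone the difference of Lrpap1 was -0.27 (adjusted p = 0.0827), and without sham mouse 1 or 3 or DOCA-salt mouse 2 or 3 it did not pass (adjusted p = 0.0698 to 0.115). Lrp2 was at 789, 1085 and 716 CPM against 871, 715 and 829 (-0.10; -0.50 to 0.30), and Cubn, Amn, Dab2 and Clcn5 did not pass.

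Over 20 cell classes and segments of the sham mice, genes whose mean levels followed each member closely were taken from 11692 genes with at least 20 CPM in a class. The values are Pearson correlations of log2(CPM + 1), the points share libraries, and no test was made. For Lrp2 they included Acsm2 (0.990) and Pdzk1 (0.987). Cubn and Amn were each other's nearest gene (0.990), followed by Cyp2j5 (0.986) and Pdzk1 (0.984) for Cubn and, among others, Pdzk1 (0.986) for Amn. For Dab2 they included Dcxr (0.825) and Gpd1 (0.816), for Clcn5 Acot3 (0.924), Atp6v0c (0.896) and Zfp750 (0.885), and for Lrpap1 Rida (0.960), Akr7a5 (0.958) and Scp2 (0.957). The correlation of Lrp2 with Dab2 was 0.630 and with Clcn5 -0.05.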

How the data were processed

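Kidney cells of 3 sham and 3 DOCA-salt mice were compared, 1 library per mouse. The deposited values are whole-number UMI counts for each gene in each barcode, which the authors made by Cell Ranger (9.0.0 in the submitters' processing notes; the file headers name an earlier release) on GRCm39, without normalization. The filters followed the study's methods: at least 170 genes and 500 UMIs, at most 50% mitochondrial and 5% hemoglobin UMIs. In place of DoubletFinder, Scrublet scores removed the top 0.8% per 1000 barcodes (4931 barcodes). Harmony was not used.

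Clusters (scanpy 1.11.5, igraph 0.11.9; 2000 variable genes, 30 principal components, 15 neighbours, resolution 1) were named from fixed markers, and proximal cells were clustered again for segments. The members and lists were chosen with earlier results of these data known, and listed genes played no part in the clusters. UMIs were summed per mouse and class (at least 10 cells in every mouse) and tested with edgeR 4.0.16 (quasi-likelihood, TMM scaling, low counts filtered, Benjamini-Hochberg adjustment over all genes, threshold 0.05). CPM here are these TMM-scaled UMIs. Differences between segments used the mouse as a block. DESeq2 1.42.0, limma 3.58.1 and the other settings were alternatives. The pipeline was tested on simulated data. Of simulated 1.5-fold changes the edgeR test recovered 16.7% in S1-like, 24.2% in S2-like, 1.52% in S3-like and 16.7% in all proximal cells. Of simulated 2-fold changes it recovered 61.2, 80.6, 61.2 and 71.6% in the same order. In simulated intercalated B-like cells 14 of 144 calls were false. A change that did not pass may therefore still be present. Named genes were the members, list genes past the threshold (at most 4 rises and 4 falls per list) and the 3 nearest genes per member. Some genes that this rule names are not reported here.

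Nothing in the labels pairs mice by replicate number, and same-numbered mice correlated between -0.40 and 0.01 in all proximal cells. The libraries numbered 3 were the shallowest of both groups (median 4779 UMIs in sham and 5875 in DOCA-salt mice). Whether same-numbered mice were handled together is not known.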

Additional observations from a re-analysis of the deposited data

Results flagged for a closer look

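The DOCA-salt change of Cubn was larger in S2-like than in S1-like cells by 0.71 on the log2 scale (edgeR's quasi-likelihood test with Benjamini-Hochberg adjustment, adjusted p = 8.42e-05), and that of Dab2 by 0.53 (adjusted p = 0.00363), although neither gene passed within a segment. Cubn moved by 0.55 in S2-like and by -0.13 in S1-like cells, and Dab2 by 0.46 and -0.01. In 3 of 3 DOCA-salt mice the S2-like level of Dab2 was above all sham mice, but the highest sham mouse came close to the lowest of them. The share of all genes without overlap was not counted. In S2-like cells 28.3% of all genes had an unadjusted p under 0.05 by the edgeR test. The S2-like cells of the groups lay mostly in different clusters, which was not separated from the change. The S3 marker scores of these clusters were 0.57 and 0.46 for those mostly of sham cells. They were 0.12 and 0.16 for those mostly of DOCA-salt cells, and their part was not tested. In clusters with few Malat1 UMIs neither difference passed (0.27 and 0.08, edgeR adjusted p = 0.181 and 0.736). Malat1 was at 24234 to 28718 CPM of non-mitochondrial UMIs in sham and 33119 to 39262 in DOCA-salt S2-like cells, and overlapped in S1-like cells, and its part was not tested.

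The change of Lrp2 differed between S3-like and S1-like cells by 0.79 (edgeR adjusted p = 6.38e-04), on 11 to 68 S3-like cells per mouse. It was lost with a segment given to each barcode (0.12, edgeR adjusted p = 0.733), with at most 20% mitochondrial UMIs (0.88, adjusted p = 0.598), and without sham mouse 3 (0.61, adjusted p = 0.0646) or DOCA-salt mouse 3 (0.70, adjusted p = 0.0574).

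The change of Clcn5 differed between intercalated B-like and A-like cells by 0.49 (edgeR adjusted p = 0.0295). All 3 DOCA-salt mice were above all sham mice in B-like cells, and the groups overlapped in A-like cells. The difference was lost with library sizes alone (0.35, edgeR adjusted p = 0.14) and without any mouse but sham mouse 2 (0.37 to 0.52, adjusted p = 0.0544 to 0.256).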

How the results depend on the processing

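The changes of the members within segments missed the threshold in most settings. Some of their values changed sign, and the cause was not tested. In S1-like cells Dab2 (main -0.01) was 0.033 with library sizes alone, 0.0063 with the replicate block, 0.0043 with at most 20% mitochondrial UMIs, and 0.011, 0.054 and 0.016 in clusters with few Malat1 UMIs, with a low mitochondrial share and with both kinds of UMIs. In clusters with few Malat1 UMIs S1-like Lrp2 was -0.019 and Amn -0.026, and in those with both kinds of UMIs Clcn5 was 0.0081. In S2-like cells Clcn5 was 0.028 with library sizes alone, 0.00255 with at most 20% mitochondrial UMIs, 0.12 in clusters with few Malat1 UMIs and 0.0047 in those with a low mitochondrial share, and Amn was -0.000199 without doublet removal, -0.10 with segments per barcode and -0.027 in clusters with both kinds of UMIs. In S3-like cells Dab2 was 0.075 with library sizes alone, 0.14 without a filter, 0.90 with at most 20% mitochondrial UMIs, 0.24 per barcode and 0.17 with cells weighted equally; Lrpap1 was 0.068, 0.12 and 0.023 under the first 3 of these and 0.25 at doubled resolution; Clcn5 was -0.054 without doublet removal and -0.16 per barcode. In all proximal cells Clcn5 was 0.000245 with cells weighted equally. In whole kidneys library sizes alone gave 0.012 for Lrp2, 0.051 for Cubn, 0.0095 for Amn and 0.10 for Dab2, and the replicate block gave 0.0039 for Dab2.

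Without a filter 1 member rose in S2-like and 1 in S3-like cells, and at doubled resolution 2 rose in S3-like cells (Lrp2 0.54 and Cubn 0.97), which then took in a cluster of 1040 cells with an S3 marker score of 0.25 beside one of 234 cells with a score of 3.28. With library sizes alone and with the replicate block, 0 and 0 members fell in whole kidneys, 0 and 1 in connecting tubule, 1 and 0 in distal convoluted tubule, and 1 and 0 rose in intercalated B-like cells (Clcn5 0.76, edgeR adjusted p = 0.0527 with the block). The labels give replicate numbers no shared origin, so whether the block fits the design is not known. What a call lost under the block means was not tested. The share of all genes called within a class was not counted in any of these settings, so these counts cannot be read as a result about the members. Scaling by library size alone moved the median of all genes by 0.13 in S3-like cells, 0.12 in whole kidneys, 0.19 in connecting tubule, 0.15 in distal convoluted tubule, 0.11 in dendritic and 0.15 in cycling cells, by -0.16 in intercalated B-like cells and by -0.11 in the cluster led by Wt1 and C3.

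Between S2-like and S1-like cells 4 members passed with a larger and 2 with a smaller change with at most 20% mitochondrial UMIs, where 19.3% of all genes passed, and 1 passed with a smaller change without doublet removal and 1 per barcode (Lrpap1 -0.31 in both). Without doublet removal Lrp2 passed too (0.24). Within clusters with few Malat1 UMIs 0 passed, Amn was 0.23 and Lrpap1 0.092; Amn was 0.014 at a low mitochondrial share and Clcn5 -0.10 with both kinds of UMIs. Between S3-like and S1-like cells 0 passed with at most 20% mitochondrial UMIs and 3 at doubled resolution (on the same enlarged S3-like cells), where Dab2 was -0.31. Per barcode Lrpap1 was -0.056 and Cubn passed (0.70). Between intercalated B-like and A-like cells 0 passed with library sizes alone. Every setting of the intercalated comparison, the kinds of cluster and, for differences between segments, all settings other than library sizes and mice left out were chosen after seeing the data.

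In the pathway lists 1 lysosomal gene rose with library sizes alone and 2 with DESeq2, and by DESeq2 1 traffic, 2 acidification, 3 ligand and carrier and 2 dissociation genes fell. The shares of all genes called in these settings are not reported here, so the counts cannot be set against them. For shares of cells, DOCA-salt minus sham in percentage points, no thinning gave -1.48 for Lrp2 and 0.90 for Lrpap1 in S1-like, -9.59 for Cubn and -3.87 for Amn in S3-like, and 2.87 for Clcn5 and 1.98 for Lrpap1 in all proximal cells; thinning to 500 UMIs gave -0.042 for Dab2 in S3-like and 0.0084 for Clcn5 in all proximal cells.

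Leaving out each mouse in turn, the log2 changes ranged from -0.089 to 0.32 for Amn and -0.15 to 0.11 for Dab2 in S1-like cells, from -0.080 to 0.25 for Amn and -0.10 to 0.018 for Clcn5 in S2-like cells, from -0.083 to 0.56 for Amn, -0.31 to 0.46 for Dab2 and -0.24 to 0.11 for Lrpap1 in S3-like cells, and from -0.067 to 0.33 for Amn in all proximal cells. In whole kidneys they ranged from -0.22 to 0.095 for Lrp2, -0.23 to 0.11 for Cubn, -0.25 to 0.11 for Amn and -0.16 to 0.17 for Dab2. Between S2-like and S1-like cells Amn ranged from -0.085 to 0.045, and between S3-like and S1-like cells Dab2 ranged from -0.14 to 0.49. The number of members called ranged from 0 to 3 in S2-like and 0 to 1 in S3-like cells (higher), 0 to 1 in whole kidneys, 0 to 2 in connecting tubule and 0 to 3 in distal convoluted tubule (lower), 1 to 2 in intercalated B-like cells, 4 to 6 in the cluster led by Wt1 and C3, and 0 to 1 in macrophages, dendritic cells, the cluster led by Tnip3 and Tyrobp, S3-like against S1-like cells and intercalated B-like against A-like cells (higher). The share of all genes called was not counted with a mouse left out, so these counts cannot be read as a result about the members. Shares, in percentage points, ranged in S1-like cells from -1.33 to 3.25 for Lrp2 and -0.44 to 4.74 for Amn, in S2-like cells from -0.40 to 3.85 for Amn and -0.47 to 0.23 for Clcn5, in S3-like cells from -3.14 to 4.78 for Amn and -3.98 to 4.84 for Dab2, and in all proximal cells from -0.48 to 4.33 for Amn, -0.30 to 7.03 for Dab2 and -0.35 to 0.077 for Clcn5. No proximal cluster had over 80% of its cells from 1 mouse, so leaving such clusters out gave no value. The cluster mostly of DOCA-salt mouse 2 was not counted as proximal, and adding it changed no call. The same held for the cluster led by Wt1 and C3, whose cells with proximal genes came mostly from DOCA-salt mice. The S3-like values rest on 11 to 68 cells per mouse.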
